A study of Homo sapiens with 7 samples.

Results

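Occupancy of 3 pancreatic transcription factors was examined around 5 genes of the pancreatic duct: SLC4A4, CFTR, PKHD1, SPP1 and KRT19. A region belonged to a locus when its midpoint lay inside the gene or within 100 kb of either end, on the genome build hg19. In all, 113 of 86081 regions in the series fell in these windows. They were 90 of 64919 HNF6 regions of day 10, 7 of 6285 GATA6 regions, 16 of 14627 NKX6.1 regions and 0 of 250 HNF6 regions of day 5. The loci were chosen with earlier results on these lists known, so their counts are descriptions.

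The cells were CyT49, an established human embryonic stem cell line, differentiated in vitro toward pancreas without any genetic change named in the labels. HNF6 (ONECUT1) was immunoprecipitated on day 5, when the cells are gut tube endoderm, and again on day 10. GATA6 was immunoprecipitated on day 10 and NKX6.1 on day 13. Day 10 cultures are called pancreatic progenitors in the growth protocol and carry the stage label PE, while day 13 carries the label PP. Each factor and day had 1 library of 1 cell line, so the values below describe single libraries, with no replicates to test them against and hence no p-values. Inputs of days 5, 10 and 13 were not analysed here. Bound regions were compared with no measure of gene expression, and the lists do not show which cells of a culture carried a factor.

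Pancreatic ducts carry a bicarbonate-rich fluid from the acini to the gut. SLC4A4 encodes the sodium bicarbonate cotransporter NBCe1, which brings bicarbonate into duct cells, and CFTR encodes the apical anion channel through which chloride and bicarbonate leave them. Duct cells bear a primary cilium, and PKHD1 encodes fibrocystin, a membrane protein of cilia whose loss causes recessive polycystic kidney and liver disease. SPP1 encodes the secreted glycoprotein osteopontin and KRT19 the duct cell keratin 19. HNF6 is expressed in embryonic and adult ducts, and mouse embryos without it form cystic ducts that lack cilia. GATA6 acts broadly in pancreatic progenitors, and NKX6.1 is kept in part of the endocrine lineage and lost from mature ducts.

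The sequence upstream of each gene start is shown because the loci differed in whether any list reached it. These are the 250 bases before the start site from RefSeq, build GRCh38.p14, 5′ to 3′ on the gene's strand. Capitals mark the words GATAA or TTATC, which are core GATA words. For SLC4A4, RefSeq lists 5 start sites, and the one shown is the site whose distance to the gene end differs from the hg19 gene length by 23 bp. The farthest upstream of the 5 gives a gene length of 509424 bp in RefSeq, against 384802 bp for the interval used here. What is called upstream of SLC4A4 is therefore upstream of the start shown, and can lie inside the longer transcripts. Another of the 5 sites, not shown, has GATAA beginning 183 and 115 bases before it. KRT19 has no entry in the table used.
SLC4A4 (chr4:71187009-71187258, plus strand): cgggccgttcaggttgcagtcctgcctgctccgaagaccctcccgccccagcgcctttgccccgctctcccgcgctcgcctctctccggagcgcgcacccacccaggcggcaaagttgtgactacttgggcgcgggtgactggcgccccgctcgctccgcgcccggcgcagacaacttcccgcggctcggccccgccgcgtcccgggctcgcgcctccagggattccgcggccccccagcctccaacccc
CFTR (chr7:117479775-117480024, plus strand): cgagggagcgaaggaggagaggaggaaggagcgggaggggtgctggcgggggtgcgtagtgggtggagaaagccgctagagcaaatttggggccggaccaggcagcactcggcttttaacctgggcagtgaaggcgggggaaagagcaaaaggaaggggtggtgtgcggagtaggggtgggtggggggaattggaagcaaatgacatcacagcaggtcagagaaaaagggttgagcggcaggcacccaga
PKHD1 (chr6:52087614-52087863, minus strand): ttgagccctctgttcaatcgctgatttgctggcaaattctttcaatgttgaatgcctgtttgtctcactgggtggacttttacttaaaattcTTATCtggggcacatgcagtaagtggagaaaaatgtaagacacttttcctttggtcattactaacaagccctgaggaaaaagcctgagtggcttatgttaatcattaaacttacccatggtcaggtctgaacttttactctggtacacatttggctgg
SPP1 (chr4:87975464-87975713, plus strand): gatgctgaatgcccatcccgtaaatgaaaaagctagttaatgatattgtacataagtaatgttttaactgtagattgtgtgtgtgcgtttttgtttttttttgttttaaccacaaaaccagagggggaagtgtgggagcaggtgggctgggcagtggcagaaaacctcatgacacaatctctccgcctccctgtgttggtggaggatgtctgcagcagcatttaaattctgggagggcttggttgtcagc
On both strands, the words ATCAAT and ATTGAT (HNF6), GATAA and TTATC (GATA6) and TAATTA (NKX6.1) were searched. Words of the HNF6 and GATA6 sets can overlap by sharing the letters ATC. Of 35116 upstream sequences of the same length, 5.58% held an HNF6 word, 20.4% a GATA6 word and 4.35% the NKX6.1 word. In these 4 sequences the matches were 1 TTATC, which begins 158 bases before the PKHD1 start. The SLC4A4 sequence was 75.2% G and C, that of CFTR 61.2%, that of SPP1 44.8% and that of PKHD1 40.8%. At SLC4A4, a weak HNF6 region reached into the sequence shown, as described below. At CFTR, PKHD1 and KRT19, no region of any list had its midpoint within 5 kb of the start. The whole lists average 2.13 HNF6 regions of day 10, 0.206 GATA6 and 0.479 NKX6.1 regions per 100 kb. A stretch so short is thus commonly empty, and the share of all gene starts without a region was not counted.

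SLC4A4 (chr4:72053003-72437804, plus strand) held more regions than the other 4 loci together. Its window of 584.8 kb had 51 HNF6 regions of day 10, 5 GATA6 regions and 5 NKX6.1 regions. The HNF6 density was 8.72 regions per 100 kb, against 2.13 for the whole list, a ratio of 4.10. When the chromosomes were tiled with 5207 windows of the same length, 0.0384% of them (2 windows) held at least 51 HNF6 regions. The median window held 12 HNF6 regions and the fullest held 55. Tiles start at fixed positions whereas this window was centred on the gene, and the tile that shares 47 of its regions held 48. With tiles shifted to begin in the middle of the earlier ones, an alternative chosen after the data had been seen, 0.0192% of 5195 windows held as many. For GATA6, 2.90% of the windows held at least 5 regions, and for NKX6.1, 21.8% did. Listed GATA6 regions occur only where HNF6 of day 10 is also listed, and a window rich in HNF6 offers more such places. The GATA6 window shares given here and for other loci are therefore not separate from the HNF6 counts.

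**Figure D1:**
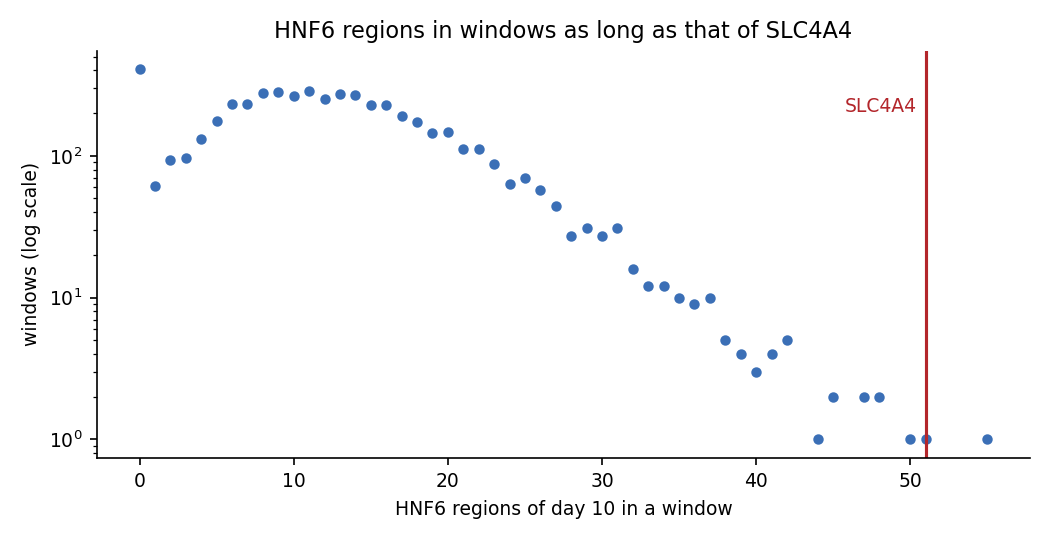
Number of windows (vertical axis, log scale) by the HNF6 regions of day 10 they held (horizontal axis), for 5207 windows tiled along the chromosomes; each point is one number of regions. The red line marks the SLC4A4 window with 51 regions, and the fullest window held 55.

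The HNF6 regions at SLC4A4 spanned nearly the whole score range. Their scores ran from 22 to 3064 with a median of 59, against a median of 79 in the whole list. As score percentiles within the HNF6 list, where 50 is the middle of the list, the median was 36.8. Of the 51, 20 lay above the percentile of 50 (39.2%, Wilson 95% interval 27.0 to 52.9), where 49.8% of all HNF6 regions lie. The highest score decile held 3 of them, or 5.88% (2.02 to 15.9), against 10.0% of the list. Both intervals include the value of the list, but they cover counting error only and treat neighbouring regions as independent. Among the 60 tiled windows with 35 or more HNF6 regions, the median percentile of a window ran from 31.2 to 64.5, and 6 windows had a lower median than SLC4A4. The tile that shares 47 regions with the SLC4A4 window is one of the 60, with a median of 37.8.

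The strongest region by far was that shared by the lists of all 3 factors, just upstream of the SLC4A4 start. HNF6 and GATA6 were from day 10 and NKX6.1 from day 13, so binding at the same time was not measured. The HNF6 region chr4:72049927-72050786 had a score of 3064, rank 45 of 64919 and percentile 99.9. It covered 860 bp, which 304 regions of the list equal or exceed, and was listed as 2 rows with scores of 3064 and 75. The GATA6 region chr4:72050152-72050741 lay wholly inside it, with a score of 952 and a percentile of 96.4. The NKX6.1 region chr4:72050562-72050728 lay wholly inside both, with a score of 366 and a percentile of 97.9. The 3 lists thus shared 167 bp, the whole NKX6.1 region, whose end lay 58 bp from the edge of the HNF6 region nearer to the gene. The HNF6 region ended 2217 bp before the gene start, the GATA6 region 2262 bp and the NKX6.1 region 2275 bp.

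Midpoints of the HNF6 and GATA6 regions lay 90 bp apart, and those of HNF6 and NKX6.1 288.5 bp apart. No HNF6 region of day 5 overlapped it. In the whole HNF6 list, 1.15% of the regions (745) overlapped both other factors. By the mean of its 3 percentiles, 98.1, the SLC4A4 region ranked 7 of 745, where the median was 66.3. By HNF6 score alone it ranked 14, by NKX6.1 58 and by GATA6 69. The locus was chosen with this region in view, so these ranks describe it and test nothing.

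**Figure D2:**
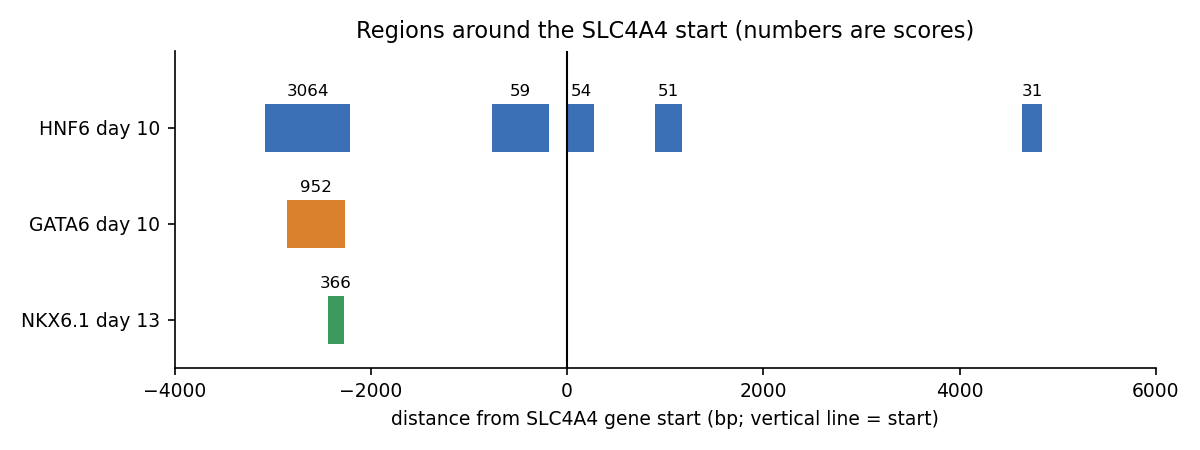
Regions within 6 kb of the SLC4A4 start, drawn to scale by distance from the start in bp (horizontal axis) with one row per list; the number above each bar is its score. HNF6 and GATA6 of day 10 and NKX6.1 of day 13 share the region that ends 2217 bp before the start. The other 4 HNF6 regions have scores of 31 to 59.

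Around the SLC4A4 start itself, HNF6 regions were present but weak. The region chr4:72052234-72052817, with a score of 59, ended 186 bp before the start and so reached into the upstream sequence shown above. Another RefSeq start site of the gene gives a length 517 bp above that of the hg19 interval, a distance that this region spans. The region chr4:72053017-72053279, with a score of 54, began 14 bp inside the gene. The regions chr4:72053903-72054176 (score 51) and chr4:72057640-72057845 (score 31) followed. These 4 had percentiles of 36.8, 31.3, 29.3 and 8.89. None overlapped GATA6 or NKX6.1, where 9.66% and 3.20% of all HNF6 regions did. Together with the region of 3 factors, 5 HNF6 regions lay within 5 kb of the start.

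Inside the gene, HNF6 regions were spread along its length at 8.06 per 100 kb, 31 in all, with a median percentile of 34.9. The 100 kb upstream held 6 and the 100 kb downstream 14. Neighbouring midpoints were a median of 7.46 kb apart, and the longest stretch without a region was 40.0 kb. Downstream of the gene lay a group of the strongest regions after the shared one. They were chr4:72465377-72466103 (score 525, percentile 93.0), chr4:72450437-72450776 (score 497, percentile 92.6) and chr4:72474105-72474579 (score 373, percentile 89.4). Their midpoints lay 27.9, 12.8 and 36.5 kb past the gene end. None overlapped a listed GATA6 or NKX6.1 region, where 9.66% and 3.20% of all HNF6 regions did. The next protein-coding gene on that side in RefSeq is GC, the vitamin D binding protein of liver. The nearer gene on the upstream side is DCK, which encodes deoxycytidine kinase.

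GATA6 was found at 5 of the 51 HNF6 regions of SLC4A4, or 9.80% (4.26 to 21.0), against 9.66% of all HNF6 regions. The share at the locus was thus that of the list. Besides the shared region upstream, all 4 lay in the gene. At chr4:72282844-72283115 (HNF6 score 176) the GATA6 region chr4:72282844-72283120 (score 102) had the same start and a midpoint 2.5 bp away. At chr4:72415557-72415920 (HNF6 score 214) the GATA6 score was 162, and at chr4:72391668-72391973 (HNF6 score 61) it was 44. The remaining pair, at chr4:72154537-72154723 (HNF6 score 55, GATA6 score 112), shared 13 bp, or 6.95% of the shorter region. The HNF6 regions with GATA6 had a median percentile of 76.0 (5 regions) and those without it 35.8 (46 regions). In the whole list these medians were 82.4 and 47.5. The GATA6 list gives 6285 of 19404 peak numbers (32.4%), and 100% of its regions overlap an HNF6 region, so a GATA6 region away from HNF6 could not appear.

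Outside the shared region, NKX6.1 regions at SLC4A4 had lower scores. The other 4 had scores of 13, 30 and 19 inside the gene and 80 downstream. Their percentiles were 0.202, 19.1, 6.11 and 70.6. The downstream one, chr4:72503776-72503874, lay 127 bp from the HNF6 region chr4:72503435-72503648 (score 59) without touching it. The 3 inside the gene lay between 2907 and 12109 bp from the nearest HNF6 region.

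CFTR (chr7:117120017-117308719, plus strand) had about as many HNF6 regions as a typical window of its length, where the median was 8. Its window of 388.7 kb held 7 HNF6 regions of day 10, 1.80 per 100 kb, a ratio of 0.847 to the list. Of 7840 windows of that length, 58.1% held at least 7. The scores were 109, 98, 41, 109, 45, 62 and 41 along the direction of transcription, and the highest percentile was 62.3, so that the top decile of scores held 0 of 7 (0 to 35.4%), where the list has 10.0%. The region nearest the start, chr7:117113754-117113942, lay 6.17 kb upstream of it. GATA6 had 0 regions in the window, and the nearest GATA6 region outside lay 204.7 kb past the gene end, with a score of 16. The median window of that length also held 0 GATA6 regions, and the list holds none away from HNF6.

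NKX6.1 had 5 regions at CFTR, 1.29 per 100 kb, a ratio of 2.69 to its list, and 8.57% of the windows held at least 5. Their scores were 47, 77, 19, 49 and 60, with percentiles from 6.11 to 68.6. None overlapped an HNF6 region, where 14.3% of the whole NKX6.1 list did, so 0 of 5 is a common outcome. The nearest HNF6 region lay between 13216 and 30392 bp away. CFTR thus had 5 NKX6.1 regions beside 7 HNF6 regions, with no percentile above 68.6 in either list.

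**Figure D3:**
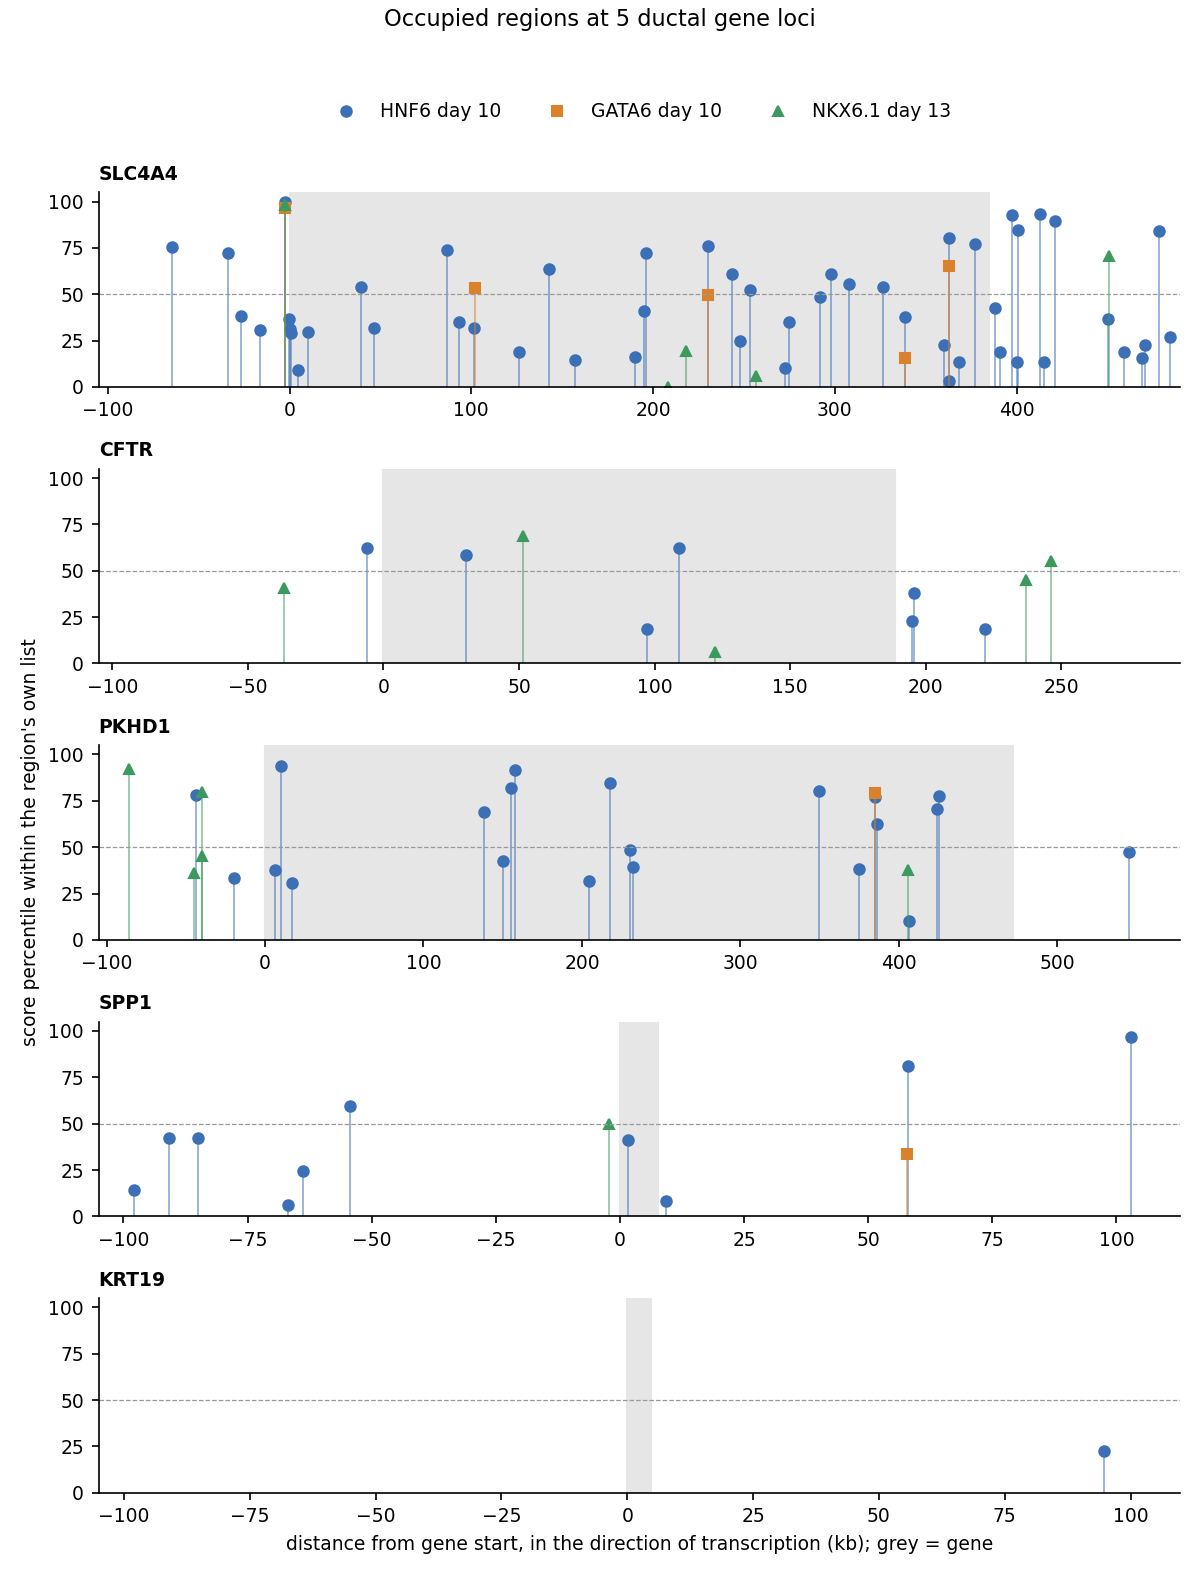
Each occupied region at the 5 loci by distance from the gene start in kb (horizontal axis, in the direction of transcription, gene in grey) and by score percentile within its own list (vertical axis); colour and symbol give the list and the dashed line the percentile of 50. SLC4A4 has 51 HNF6 regions, of which the one just upstream stands at the HNF6 percentile of 99.9, the GATA6 percentile of 96.4 and the NKX6.1 percentile of 97.9. KRT19 has 1 region.

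PKHD1 (chr6:51480145-51952423, minus strand, so that its start is at the higher coordinate) had HNF6 regions mainly inside the gene. Its window of 672.3 kb held 21 HNF6 regions, 3.12 per 100 kb, a ratio of 1.47 to the list, and 22.2% of 4527 windows of that length held at least 21. Of these, 2 lay upstream, 1 downstream and 18 in the gene, which makes up 472.3 kb of the window. The strongest, chr6:51942226-51942710, had a score of 585 and a percentile of 94.0, and lay 9.96 kb inside the gene from its start. The next, chr6:51794613-51794977, had a score of 453 and a percentile of 91.7, at 157.6 kb from the start. The region chr6:51797269-51797579 (score 232) lay close beside it. The median percentile was 62.3 and 11 of 21 regions lay above the percentile of 50 (52.4%, 32.4 to 71.7). The gene thus had a higher median HNF6 percentile than SLC4A4 with fewer regions, and the spread of both covered most of the range.

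Within 5 kb of the PKHD1 start no list had a region, which is common for so short a stretch at the list densities given above. The strongest HNF6 region of the locus was the second nearest on the gene side. The nearest HNF6 region, chr6:51945887-51946098 (score 61), lay 6.43 kb inside the gene. GATA6 had 1 region in the window (64.4% of the windows held at least 1), chr6:51567605-51567848 with a score of 269 and a percentile of 79.1. It lay 384.7 kb from the start on the HNF6 region chr6:51567583-51567844 (score 184, percentile 77.1), with midpoints 13 bp apart. NKX6.1 had 5 regions (28.4% of the windows held at least 5), of which 4 lay upstream of the gene. The strongest of the 5, chr6:52037957-52038062, had a score of 197 and a percentile of 92.4 and lay 85.6 kb upstream. A pair at 39.6 and 40.0 kb upstream had scores of 104 and 49, and another at 44.8 kb a score of 42. The one in the gene, chr6:51546400-51546513 (score 43), lay 465 bp from an HNF6 region, and that at 44.8 kb lay 977 bp from one. None overlapped HNF6.

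SPP1 (chr4:88896802-88904563, plus strand) had weak regions near the gene and stronger ones toward the far downstream edge. Its window of 207.8 kb held 10 HNF6 regions, 4.81 per 100 kb, a ratio of 2.26 to the list, and 8.91% of 14676 windows of that length held at least 10. One of them, chr4:88898327-88898505 with a score of 67, lay in the gene, 1.61 kb from its start. An NKX6.1 region, chr4:88894470-88894585 with a score of 55 and a percentile of 49.7, lay 2.27 kb upstream of the start. It was the 1 NKX6.1 region of the window (55.8% of the windows held at least 1) and did not overlap HNF6.

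The strongest HNF6 region at SPP1, chr4:88999639-89000026, had a score of 839 and a percentile of 96.6 and lay 95.3 kb past the gene end. At 50.2 kb past it, the HNF6 region chr4:88954597-88954883 (score 221, percentile 81.2) overlapped the GATA6 region chr4:88954510-88954721 (score 68, percentile 33.5) by 125 bp. That was the 1 GATA6 region of the window, and 31.0% of the windows held at least 1. The next protein-coding gene on that side in RefSeq is PKD2, which encodes polycystin 2, a cation channel of primary cilia. Its hg19 position was not used here, so these regions are placed relative to SPP1 alone. Upstream, 6 HNF6 regions had scores of 27 to 99.

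KRT19 (chr17:39679869-39684641, minus strand) had 1 occupied region. Its window of 204.8 kb held 1 HNF6 region, chr17:39589906-39590102 with a score of 45 and a percentile of 22.6, at 89.9 kb past the gene end. In all, 86.9% of 14892 windows of that length held at least 1. GATA6 and NKX6.1 had 0 regions there, where the median window held 0 and 1. The keratin genes KRT15 and KRT9 are its protein-coding neighbours in RefSeq. Since a window limit of 100 kb set this count, the nearest regions outside it were also read. The HNF6 region chr17:39832034-39832311 (score 87) and the NKX6.1 region chr17:39832027-39832127 (score 80) lay 147.5 and 147.4 kb upstream and overlapped each other.

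**Figure D4:**
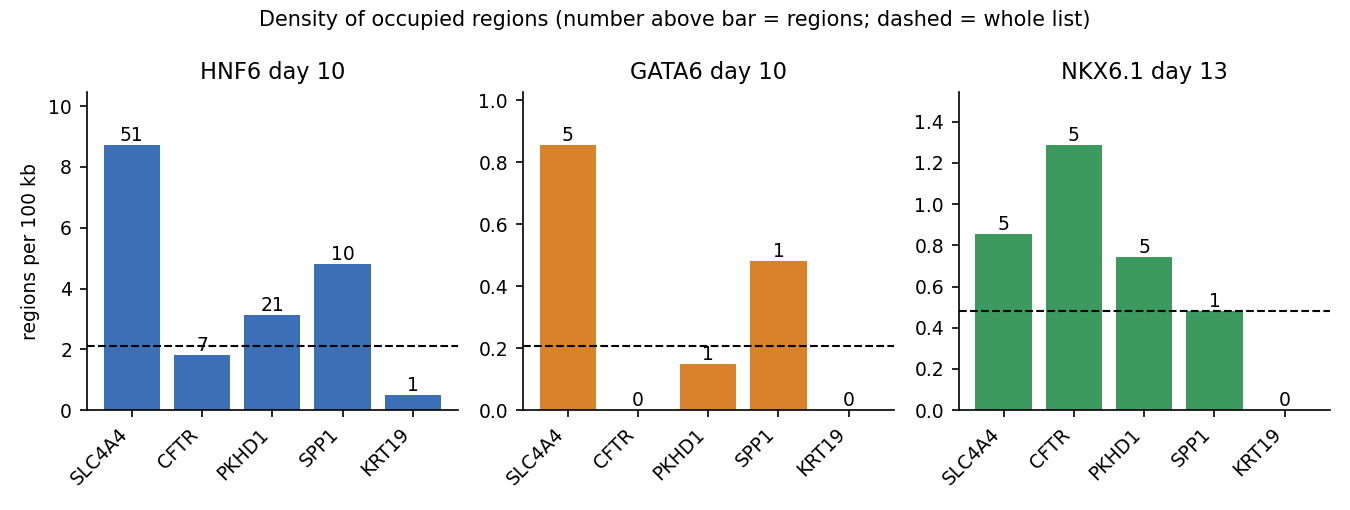
Regions per 100 kb (vertical axis) at each locus, one panel per list, with the number of regions above each bar and the density of the whole list as a dashed line. HNF6 density is 8.72 at SLC4A4, 4.81 at SPP1, 3.12 at PKHD1, 1.80 at CFTR and 0.488 at KRT19, against 2.13 for the list.

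Regions near the limit of 100 kb differed in strength. The last HNF6 region inside the SLC4A4 window, 99.9 kb downstream of the gene, had a score of 49. The first outside lay on the other side, 109.6 kb upstream of the gene, with a score of 109. For SPP1 these were 37 at 97.9 kb and 34 at 109.3 kb, both upstream, while the score of 839 at 95.3 kb stood near the downstream limit. For CFTR they were 41 at 33.3 kb downstream and 45 at 111.4 kb upstream. For PKHD1 they were 76 at 73.1 kb downstream and 931 at 125.8 kb upstream. A region stronger than any inside the window thus lay beyond it on the upstream side.

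Over the 5 loci together, co-occupancy was not above that of the lists. Of the 90 HNF6 regions of day 10, 7 overlapped a listed GATA6 region, or 7.78% (3.82 to 15.2), against 9.66% of the list. They lay at SLC4A4 (5), PKHD1 (1) and SPP1 (1). With NKX6.1, which is from day 13, 1 of the 90 overlapped, or 1.11% (0.196 to 6.03), against 3.20% of the list. The same region was the one with both. Seen from NKX6.1, 1 of 16 regions (6.25%, 1.11 to 28.3) overlapped HNF6, against 14.3% of the list. An HNF6 region lay within 1 kb, edge to edge, of 4 of the 16 (25%, 10.2 to 49.5), against 22.9% of the list. All of these intervals include the value of the list, and they cover counting error only.

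No HNF6 region of day 5 fell in any window. In the whole day 10 list, 0.347% of the regions overlapped a day 5 region, and of the 90 here 0 did (0 to 4.09%). The day 5 list holds 250 regions, and the one nearest to any of the 5 genes lay 206.4 kb from KRT19. Whether HNF6 was absent from these loci on day 5 cannot be read from so short a list, since read depth is unknown.

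**Figure D5:**
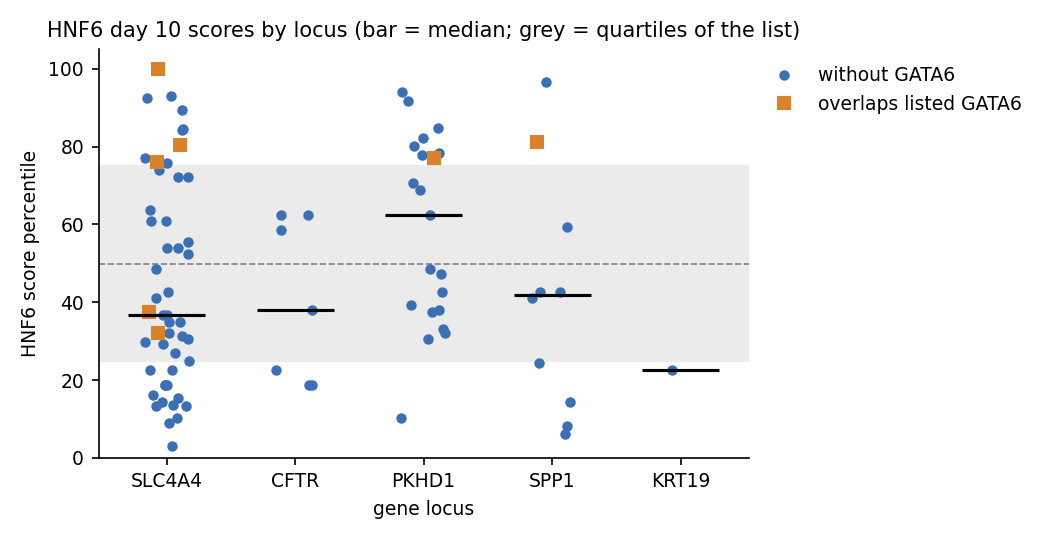
Score percentile of each HNF6 region of day 10 (vertical axis) by locus, with a bar at the median of each locus and the quartiles of the whole list in grey; orange squares overlap a listed GATA6 region. Medians are 36.8 at SLC4A4, 38.1 at CFTR, 62.3 at PKHD1, 41.8 at SPP1 and 22.6 at KRT19, and 7 of 90 regions carry GATA6.

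The 90 HNF6 regions together had a median percentile of 41.0 (quartiles 24.4 and 71.7), or 42.5 without the 51 regions of SLC4A4. The median width was 264 bp, against 261 bp for the list. Regions listed as 2 rows were 2 of 90 (2.22%, 0.612 to 7.74), against 2.11% of the list, and both lay at SLC4A4. The 7 GATA6 regions had a median percentile of 53.3 in their list, and the 16 NKX6.1 regions one of 45.1. The region of 3 factors was thus far above the middle of the members of each list, and the order of the loci by HNF6 density (SLC4A4, SPP1, PKHD1, CFTR, KRT19) was not their order by median HNF6 percentile.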

How the data were processed

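The authors deposited 1 list of regions per library, with no header, and a whole-number score per peak. Bowtie2 2.3.4.1, MACS2 2.1.1.20160309 and hg19 are named, without roles or settings, per the submitters' processing notes. No source used here gives the unit of the deposited score, so scores were ranked within a list only. The lowest score is 13 in each list (22 on day 5), and read depth is unknown. The extraction protocol of all samples names an NKX6.1 antibody, per the labels' protocols, and the antibody characteristic names the factor of each list.

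Rows with the same coordinates became 1 region that kept the highest score. Percentiles are the share of a list with a lower score, tied regions counted at 0.5. Positions are 1-based, and gene intervals are those of hg19. Overlap of at least 1 bp was counted in Python 3.11.15 (pandas 2.3.3, numpy 2.4.6), with bedtools 2.31.1 giving equal numbers. The overlap code was also tested on copies of real HNF6 regions mixed with regions placed away from them, which did not try partial overlaps. Wilson intervals came from statsmodels 0.14.6. Tiled windows ran from the first base to the farthest position in any list on each chromosome, gaps included.

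Genes, lists and rules were chosen with earlier results of these data known. Named regions are the strongest of each list per locus, those shared by 2 lists, those within 5 kb of a start and all GATA6 regions, and further ones were named after their values were seen. Neither sequence nor annotation of hg19 was used, so exons, introns and other duct or cilia genes were not analysed here. RefSeq (GRCh38.p14) gave upstream sequences and neighbour names.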

Additional observations from a re-analysis of the deposited data

How the results depend on the processing

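Among regions at or above the median score of their list, the 5 loci held 37 HNF6 regions of day 10 (90 in all). NKX6.1 regions then numbered 7 (16 in all) and HNF6 regions with GATA6 4 (7 in all). This cut removes a large share of any list, since 49.8% of all HNF6 and 49.5% of all NKX6.1 regions lie above the percentile of 50. At the 5 loci, 41.1% (31.5 to 51.4) and 37.5% (18.5 to 61.4) lay above it. HNF6 regions with NKX6.1 numbered 1, but 3 with windows of 200 kb, 2 without merging of rows and 0 with midpoints within 200 bp. Those with both factors numbered 1, but 2 without merging and 0 with midpoints within 200 bp. The merged region of 2 rows upstream of SLC4A4 is counted for each row in the former, and its HNF6 and NKX6.1 midpoints lie 288.5 bp apart in the latter. The other alternatives for these counts, among them windows of 50 kb and an overlap of 50% of the shorter region, stayed within 1.5 times. For single loci, 17 of 45 counts under other windows moved by more, such as HNF6 at SPP1, from 10 to 2 within 50 kb and 18 within 200 kb. Ranking within a chromosome moved the percentile of the 12 strongest regions by at most 1.80. No paired analysis was possible because each group has 1 library.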
